A study of Mus musculus with 7 samples.

Results

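The circadian clock genes are described here as 10 members: the activator Clock, the repressors Per1, Per2, Per3, Cry1, Cry2 and Ciart, the nuclear receptors Nr1d1 and Nr1d2, and the output gene Dbp. They were picked by symbol, and each was found on 1 row of a table of 56941 rows. All 10 had a mean of at least 1 TPM and so were among the 17582 genes tested. The libraries came from fresh cerebral cortex of mice at postnatal day 7. The WT group held 4 samples. The P213L group held 3, from mice whose Hnrnph2, which encodes a splicing regulator on the X chromosome, carries the P213L change. Expression was measured by sequencing of polyadenylated RNA and given as TPM, a level per transcript length in which every library sums to 1000000 transcripts. The labels give no strain, no clock time and no light cycle. Nor do they name an animal for each sample, and the p-values therefore rest on a spread that may be partly technical.

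The molecular clock is a feedback loop that runs in nearly every cell and takes about a day. CLOCK pairs with ARNTL (BMAL1), binds E-boxes in DNA and switches on the Per, Cry, Nr1d and Dbp genes, and the PER and CRY proteins then block that pair. The nuclear receptors NR1D1 and NR1D2 (REV-ERBs) repress Arntl, which therefore peaks at the opposite time of day from Nr1d1 and Dbp in mature mouse tissues. Per1 also responds within an hour to neuronal activity and stress hormones. The level of these genes in a tissue thus depends on when it was collected, and rhythms outside the master clock of the hypothalamus are still forming in young pups.

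WT replicate 3 stood apart from the other libraries, with a median correlation of 0.947 to the rest over the tested genes, against 0.986 to 0.989 in the other 6. It had 28367 rows above 0, against 31387 to 32526. The summed level of 5 excitatory neuron markers was 621.0 TPM there and 977.8 to 1124 TPM in the other 6, so the libraries carried the markers of cortical neurons. The 5 hypothalamic markers summed to 7.16 to 18.3 TPM in the WT libraries and 6.57 to 10.004 in those of P213L, and none of them was at 0 in every library. WT replicate 2 held 1244 TPM of 5 choroid plexus markers, against 4.83 to 9.54 TPM in the other 6. TPM keeps no read total, so the depth behind each value is not known from the table.

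Cry2 had the highest level of the members in WT and Per3 the lowest. The mean levels in WT were 70.7 TPM for Cry2, 50.6 for Nr1d1, 40.4 for Per1, 39.8 for Nr1d2, 27.9 for Dbp, 24.0 for Cry1, 15.6 for Clock, 10.5 for Per2, 9.43 for Ciart and 8.25 for Per3. The ranges over the 4 WT libraries overlapped between every pair of neighbours in this order except Cry1 and Clock. Within a library the order was steadier. Cry2 stood above Nr1d1, Nr1d1 above Per1, Cry1 above Clock and Clock above Per2 in 7 of 7 libraries. The neighbours Per1 and Nr1d2, Nr1d2 and Dbp, Per2 and Ciart, and Ciart and Per3 kept their order in 5 of 7, and Dbp and Cry1 in 6 of 7.

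None of the 10 members differed between P213L and WT past an adjusted p of 0.05 in limma, where 0 of the 17582 genes (0%) passed. At an unadjusted p under 0.05 there were 0 of 10 members, against 3.74% of all genes. The adjusted p ran from 0.827 to 0.994 over the members. All groups overlapped, where 8.69% of all genes had groups that did not. Of the members 6 had a log2 fold change above 0 and 4 below, where 36.6% of all genes were below 0 (P213L over WT, on the scale of log2(TPM + 0.5)), with a median of 0.04 beside 0.07 over all genes. The 95% intervals of the fold changes reached down to 0.631-fold and up to 1.61-fold for the widest of them.

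**Figure D1:**
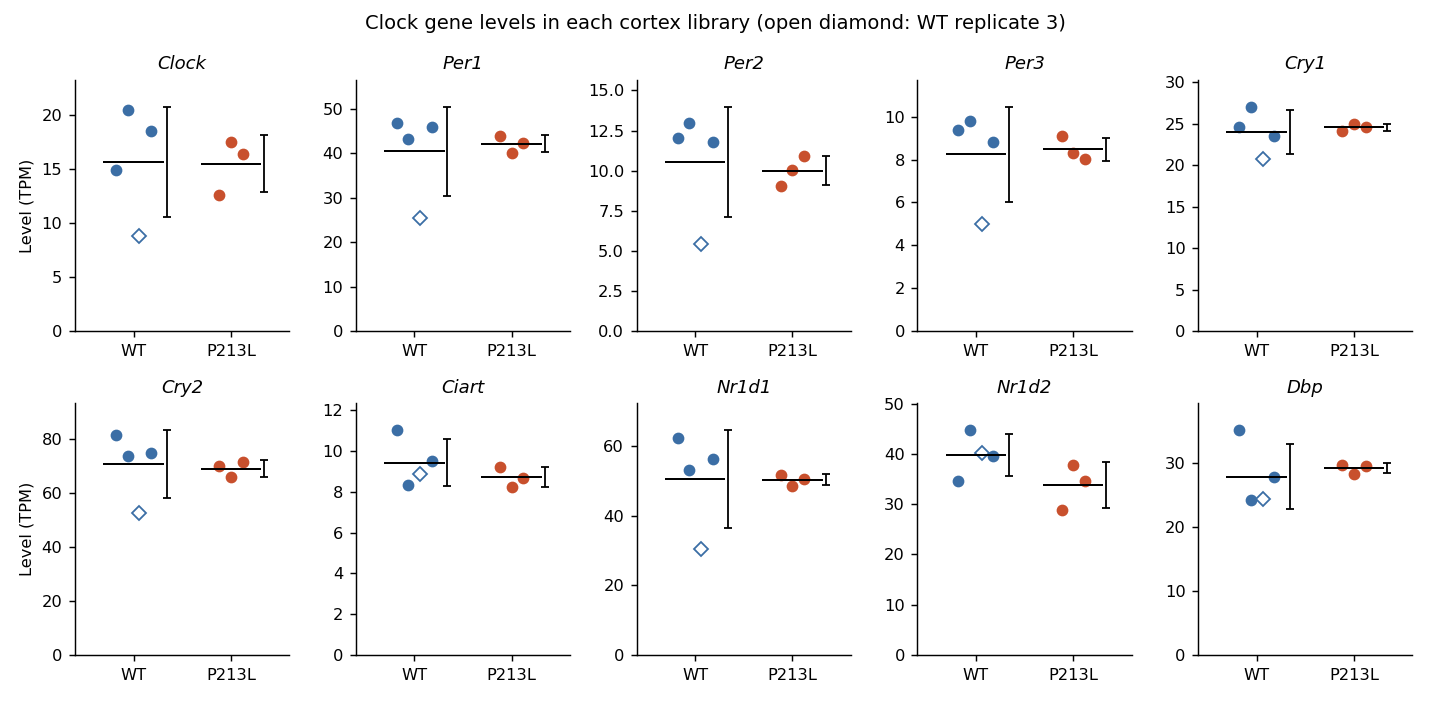
Levels of the 10 members in TPM, 1 panel per gene and 1 point per library (blue, WT; red, P213L; open diamond, WT replicate 3). Horizontal lines are group means and bars are SD. WT replicate 3, whose typical gene was low, is the lowest of the 7 libraries in 7 of the 10 panels (the share of all genes is not given here). The P213L points lie close together in most panels.

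Of the activators, Clock stood at 14.9, 20.4, 8.78 and 18.5 TPM in WT replicates 1 to 4 and at 12.5, 17.5 and 16.4 TPM in P213L replicates 1 to 3. WT replicate 3 was the lowest, and the P213L values lay within the span of WT. The log2 change from WT to P213L was 0.04 ± 0.28 (SE; limma adjusted p = 0.968). Its partner Arntl, which is not one of the 10, stood at 15.1, 12.6, 11.04 and 14.8 TPM in the WT libraries and at 14.96, 15.7 and 14.9 in those of P213L. The P213L values sat at the upper end of the WT range, with replicate 2 above it (log2 fold change 0.19 ± 0.14, SE; limma adjusted p = 0.827; 0.10 without WT replicate 3). Npas2, a paralog that can take the place of Clock in the forebrain, stood at 27.0 ± 5.58 TPM in the WT libraries and 27.6 ± 1.20 in those of P213L (SD, n = 4 and 3).

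Per1, the Period gene that also responds to activity, stood at 46.9, 43.3, 25.5 and 45.9 TPM in the WT libraries and at 43.8, 40.05 and 42.4 in those of P213L. WT replicate 3 was far below the other 6 libraries, which spanned only 40.05 to 46.9 TPM. The log2 change from WT to P213L was 0.10 ± 0.21 (SE; exact permutation p = 0.971, two-sided). Per2, a core repressor, stood at 12.02, 13.0, 5.45 and 11.8 TPM in the WT libraries and at 9.07, 10.045 and 10.9 in those of P213L. All 3 P213L values lay between WT replicate 3 and the other WT libraries. Per3, whose product is the least required for the rhythm, stood at 9.38, 9.80, 4.99 and 8.84 TPM in the WT libraries and at 9.09, 8.28 and 8.04 in those of P213L, again with WT replicate 3 lowest. The log2 fold changes were -0.01 ± 0.28 for Per2 and 0.08 ± 0.23 for Per3 (SE).

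The Cryptochromes, which bind CLOCK and ARNTL to stop them, varied less than the Period genes over the 4 WT libraries, but not without WT replicate 3. Their coefficients of variation in WT were 10.9% for Cry1 and 17.8% for Cry2, against 24.8% to 32.6% for the Period genes. Without WT replicate 3 they were 7.18% and 5.63%, against 4.11% to 5.16%. Cry1 stood at 24.6, 27.1, 20.7 and 23.6 TPM in the WT libraries and at 24.1, 25.0 and 24.6 in those of P213L. The P213L values fell in the middle of the WT range, and the interval of the log2 fold change, -0.23 to 0.31, was the narrowest of the members. Cry2 stood at 81.6, 73.8, 52.6 and 74.7 TPM in the WT libraries and at 69.9, 65.8 and 71.6 in those of P213L. As for Per2, the 3 P213L values lay between WT replicate 3 and the other 3 WT libraries. Ciart (also called CHRONO), a repressor that binds ARNTL, stood at 11.01, 8.32, 8.88 and 9.51 TPM in the WT libraries and at 9.22, 8.25 and 8.66 in those of P213L. Its groups overlapped, with WT replicate 1 highest and a log2 fold change of -0.10 ± 0.13 (SE).

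The promoters of 3 repressors are shown because they carry the sites on which the loop turns. The E-box (CACGTG, which reads the same on both strands) is the site of CLOCK and ARNTL, and the D-box (TTATGTAA or TTACATAA, by strand) is the site of DBP, TEF and HLF and of their repressor NFIL3. Capitals mark these sites. The sequences are RefSeq's upstream windows (GRCm38.p6, the build called mm10), cut where an exon of the gene begins in GENCODE vM21.
Ciart, chr3:95882252-95882478, minus strand: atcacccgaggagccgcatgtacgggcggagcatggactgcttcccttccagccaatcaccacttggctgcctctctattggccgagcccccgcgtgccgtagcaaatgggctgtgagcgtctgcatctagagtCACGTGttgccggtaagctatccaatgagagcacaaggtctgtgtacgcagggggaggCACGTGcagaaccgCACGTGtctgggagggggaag
Per1, chr11:69098699-69098947, plus strand: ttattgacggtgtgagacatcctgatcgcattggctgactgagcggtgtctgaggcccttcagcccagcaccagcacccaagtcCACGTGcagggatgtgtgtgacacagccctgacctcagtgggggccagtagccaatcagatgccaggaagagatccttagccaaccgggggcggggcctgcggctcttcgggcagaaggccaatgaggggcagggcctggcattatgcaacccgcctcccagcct
Per3, chr4:151044666-151044915, minus strand: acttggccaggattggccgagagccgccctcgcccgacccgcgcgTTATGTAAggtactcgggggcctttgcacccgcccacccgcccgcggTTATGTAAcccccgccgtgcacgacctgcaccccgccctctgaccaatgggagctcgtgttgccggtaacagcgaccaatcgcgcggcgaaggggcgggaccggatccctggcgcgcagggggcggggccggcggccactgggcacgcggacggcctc
Ciart has 3 E-boxes, which begin 116, 58 and 44 bases before its RefSeq start. Per1 has 1 E-box, 166 bases before the more upstream of its RefSeq starts in the table, and Per3 has 2 D-boxes, 205 and 158 bases before its start. A window of 250 bases was found for 9 of the 10 members (all except Per2), with 12 starts in all. An E-box was present for 3 of the 9 (Per1, Cry1 and Ciart), against 6.02% of 32851 windows of the same length in the table. Here and below, members are counted by gene over any of their starts, and the shares are of windows. A gene with several starts thus has more room for a match than a single window. A D-box was present for 1 of the 9 (Per3), against 0.819% of windows, and the variant E-box CACGTT (or AACGTG) for Cry1, Cry2 and Nr1d1, against 3.85%. The cAMP response element TGACGTCA was in 0 of the 9 and in 1.55% of windows, and its half-site TGACG (or CGTCA) in 3 of the 9 (Per1, Cry1 and Cry2) and in 17.8% of windows. No E-box, variant E-box or D-box match overlapped another, and a match or its lack in these windows says nothing about binding.

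Nr1d1, the REV-ERB receptor that represses Arntl, stood at 62.4, 53.0, 30.4 and 56.4 TPM in the WT libraries and at 51.8, 48.7 and 50.5 in those of P213L. WT replicate 3 was the lowest, and all 3 P213L values lay below the other 3 WT libraries. The log2 fold change over all libraries was 0.04 ± 0.24 (SE; limma adjusted p = 0.956). Its paralog Nr1d2 stood at 34.6, 44.7, 40.1 and 39.7 TPM in the WT libraries and at 28.8, 37.8 and 34.7 in those of P213L. Here WT replicate 3 was not low, and the P213L mean was 33.8 ± 4.58 TPM against 39.8 ± 4.15 TPM (SD, n = 3 and 4). Nr1d2 had the fold change farthest from 0 among the members, -0.24 ± 0.14 on the log2 scale (SE; limma adjusted p = 0.827; exact permutation p = 0.171), and its groups overlapped.

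Dbp, a transcription factor that carries the rhythm to other genes, stood at 35.2, 24.2, 24.4 and 27.8 TPM in the WT libraries and at 29.8, 28.3 and 29.6 in those of P213L. WT replicate 1 was highest, and the P213L values fell inside the WT range (log2 fold change 0.08 ± 0.15, SE; limma adjusted p = 0.868). Some values can hold reads of a neighbour on the other strand, since the counting setting for strand is not given in the sources used here. In GENCODE vM21 (mm10) the exons of Dbp (chromosome 7, 45705088 to 45710203, plus strand) share 539 bases, 18.01% of their length, with Sphk2, which stood at 21.6 to 32.1 TPM. Those of Nr1d1 (chromosome 11, 98767932 to 98775333, minus strand) share 263 bases, 8.55%, with the thyroid hormone receptor gene Thra, which stood at 767.4 to 1093 TPM. Sphk2 had a log2 fold change of 0.26 and Thra of 0.18 (limma adjusted p = 0.827 for both), and without WT replicate 3 these were 0.18 and 0.09. Cry2 shares 295 bases with the noncoding gene D930015M05Rik (0.277 to 4.39 TPM; log2 fold change 0.70, limma adjusted p = 0.827, and 0.10 without WT replicate 3), and Arntl 33 bases with Gm45355, at no more than 1.16 TPM.

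The sign of 5 of the 10 fold changes (Clock, Per1, Per3, Cry1 and Nr1d1) turned when WT replicate 3 was left out. Over all genes, the share below 0 went from 36.6% to 50.3%, and the share whose sign turned is not given here. Against the mean of the other WT libraries, WT replicate 3 held 44.5% of Per2, 49.0% of Clock, 53.0% of Nr1d1, 53.4% of Per3 and 56.3% of Per1. It held 68.5% of Cry2, 82.7% of Cry1, 84.0% of Dbp, 92.4% of Ciart and 101.2% of Nr1d2. The transcript models differ in length, from 2261 exonic bases for Ciart and 2993 for Dbp to 9608 for Per3 and 13727 for Clock. Nr1d1, with 3077 bases, was among the low members. The part of length in these values was not tested.

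Without WT replicate 3, 9 of the 10 members had a fold change below 0, against 50.3% of all genes, and Dbp alone stayed above it (0.02 on the log2 scale). The median over the members was -0.14, beside -0.001 over all genes. For Per2, Cry2 and Nr1d1 the groups then did not overlap, with all P213L values lower, against 6.89% of all genes in that direction. At an unadjusted p under 0.05 there were 2 members, Per2 (-0.28 ± 0.09, SE) and Nr1d1 (-0.18 ± 0.07), both lower, against 3.95% of all genes lower at that p. None passed adjustment in limma (smallest adjusted p 0.518 over the members), and 0 of 17712 genes did. Median-of-ratios scaling, which corrects for the lower typical gene of WT replicate 3, put 9 of 10 members below 0 with that library kept (median -0.05, beside -0.01 over all genes, of which 51.7% were below 0), and there Per1 was the exception, at 0.01. Only Ciart (-0.19 ± 0.13, SE) and Nr1d2 (-0.32 ± 0.16) lay farther from 0 than their SE with that scaling. No member was at an unadjusted p under 0.05 with that scaling, where 4.15% of all genes were.

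**Figure D2:**
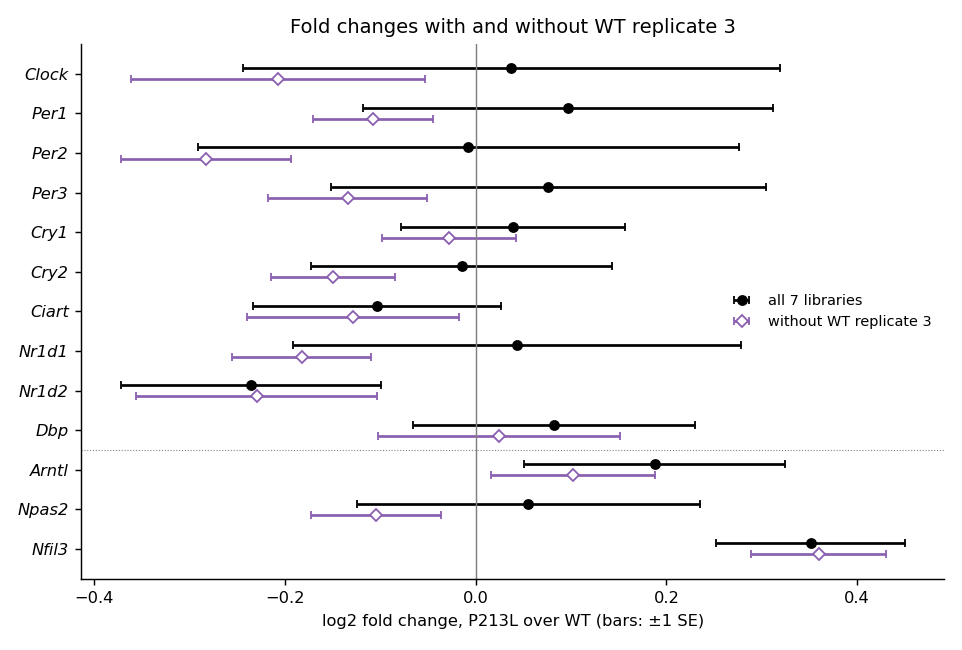
Log2 fold change of P213L over WT with ±1 SE for the 10 members and, under the dotted line, 3 other clock genes (black, all 7 libraries; open purple diamonds, without WT replicate 3). Without that library 9 of the 10 members shift to the left, to -0.28 for Per2 at the lowest, and Nr1d2 moves from -0.24 to -0.23, while Nfil3 stays at 0.35 to 0.36.

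The spread of the clock members between samples of a group was near that of other genes, slightly above it with WT replicate 3 and below it without. The residual SD of log2 level within groups had a median of 0.27 over the members and 0.24 over all tested genes, and 5 of the 10 were above the latter. Without WT replicate 3 the medians were 0.10 and 0.13, with 4 of 10 above. The coefficient of variation over the 3 P213L samples had a median of 5.08% over the members (7.12% over all genes), from 1.93% for Cry1 to 16.8% for Clock. Among the 3 WT samples left without replicate 3 it was 7.71% (9.73% over all genes). Dbp varied by 19.2% there and by 2.74% in P213L.

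Collection time was approached through genes that peak at opposite times. In each library the mean log2(TPM + 0.5) of Arntl and Npas2 was subtracted from that of Dbp, Nr1d1, Nr1d2, Per3 and Ciart, a contrast in which a scaling of the whole library cancels. It was 0.22, 0.14, 0.22 and 0.05 in WT replicates 1 to 4 and 0.05, -0.05 and 0.03 in P213L replicates 1 to 3. The P213L group was the lower without overlap, but WT replicate 4 and P213L replicate 1 were only 5.53e-04 apart. The means were 0.16 ± 0.08 and 0.01 ± 0.05 (SD, n = 4 and 3), a difference of -0.15 on the log2 scale, and -0.13 without WT replicate 3. With sample weights in the fit the difference was -0.06.

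**Figure D3:**
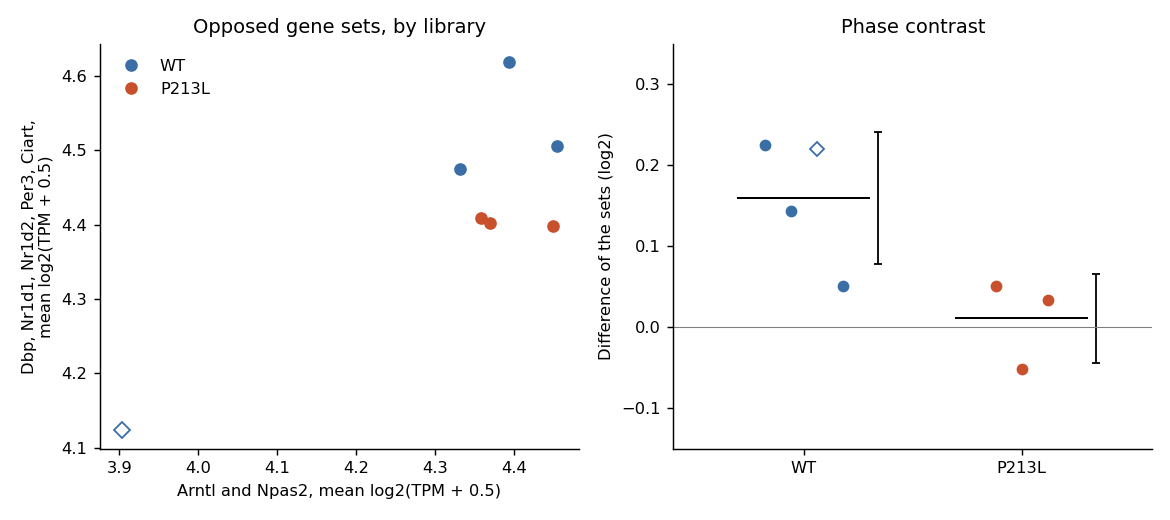
Left, the mean log2 level of the 5 genes that peak with Dbp against that of Arntl and Npas2, 1 point per library. Right, the difference of these means per library with group mean and SD (blue, WT; red, P213L; open diamond, WT replicate 3). WT replicate 3 is low in both sets, and its difference of 0.22 lies with the other WT libraries.

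The contrast spanned 0.28 over the 7 libraries, or 1.21-fold. Its parts did not move as 1 unit, and over the 7 libraries Arntl rose with Dbp (Pearson r of log2 level 0.75) rather than against it. The log2 ratio of Dbp to Arntl was 1.19, 0.92, 1.11 and 0.89 in WT and 0.97, 0.83 and 0.96 in P213L, so the groups overlapped. That of Ciart to Arntl was -0.61 to -0.30 in WT and -0.89 to -0.67 in P213L, the only ratio computed that had no overlap. Those of Nr1d1, Nr1d2, Per2 and Per3 to Arntl overlapped between the groups. That of Nr1d1 to Npas2 was 0.67 to 1.15 and 0.74 to 0.94, with P213L inside the WT range. The contrast was built from chosen genes and has no p, and genotype and time of collection cannot be told apart here, since the labels give no time.

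Of 21 other clock genes tested, 0 passed adjustment in limma. At an unadjusted p under 0.05 there was 1 of 21, near the 3.74% of all genes. It was Nfil3, which encodes the repressor that competes with DBP at D-boxes and peaks opposite to it. Nfil3 stood at 22.7, 21.9, 22.1 and 20.1 TPM in the WT libraries and at 29.0, 27.1 and 27.3 in those of P213L. All P213L values lay above all WT values, and WT replicate 3 was not apart. The log2 change from WT to P213L was 0.35 ± 0.10 (SE; limma adjusted p = 0.827; unadjusted p = 0.00794; exact permutation p = 0.0286, the lower limit with 35 splits). It was 0.36 without WT replicate 3 and 0.26 with median-of-ratios scaling. The groups did not overlap for 2 of 21, near the 8.69% of all genes. The other was Bhlhe41 (DEC2), a repressor at E-boxes, at 5.47 to 6.51 TPM in the WT libraries and 5.03 to 5.29 in those of P213L (log2 fold change -0.18 ± 0.12, SE; limma adjusted p = 0.827). Csnk1d, a kinase that marks PER proteins for decay, stood at 108.6 ± 15.1 and 125.9 ± 5.94 TPM (SD, n = 4 and 3; log2 fold change 0.22 ± 0.13, SE, and 0.12 without WT replicate 3), with overlap.

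Over the 21, 13 had a fold change above 0 and 8 below, with a median of 0.04, whereas 12 were below 0 with median-of-ratios scaling. WT replicate 3 was the lowest library for 17 of them. The share of all genes for which it was lowest is not given here. Its typical gene was low, with a factor of 0.819 in median-of-ratios scaling against 1.04 to 1.06 in the other libraries. Without WT replicate 3, 15 of 21 were below 0, against 50.3% of all genes, with a median of -0.06. At an unadjusted p under 0.05 there were then 4 of 21 lower, against 3.95% of all genes. These 4, named after their values were seen, were the D-box activators Tef (log2 fold change -0.19) and Hlf (-0.26), the Arntl activator Rora (-0.38) and the output protease Usp2 (-0.18). Tef stood at 80.2, 84.9, 60.9 and 83.7 TPM in the WT libraries and at 70.5, 73.4 and 74.5 in those of P213L. As for Per2 and Cry2, its P213L values lay between WT replicate 3 and the rest of WT.

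Genes that respond to handling, activity, hormones or temperature were read beside the clock, since Per1 and others answer to such signals. All 11 acute response genes had a fold change above 0, where 36.6% of all genes were below 0. There were 9 of 11 above 0 without WT replicate 3 and 9 of 11 with median-of-ratios scaling, where 50.3% and 51.7% of all genes were below 0. The groups did not overlap for 5 of 11, against 8.69% of all genes. Fos, an activity-induced transcription factor, stood at 8.61, 10.015, 6.96 and 7.07 TPM in the WT libraries and at 23.0, 13.5 and 10.9 in those of P213L. Every P213L library was above every WT library, and P213L replicate 1 was the highest. Btg2 stood at 11.04 ± 0.628 and 17.4 ± 3.95 TPM, Junb at 45.0 ± 4.16 and 54.4 ± 1.90 TPM, and Fosb at 1.00 ± 0.377 and 2.13 ± 0.894 TPM (SD, n = 4 and 3). None passed adjustment (limma adjusted p = 0.827 for each), and Per1 had 40.4 ± 10.04 TPM in the WT libraries and 42.1 ± 1.91 in those of P213L.

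**Figure D4:**
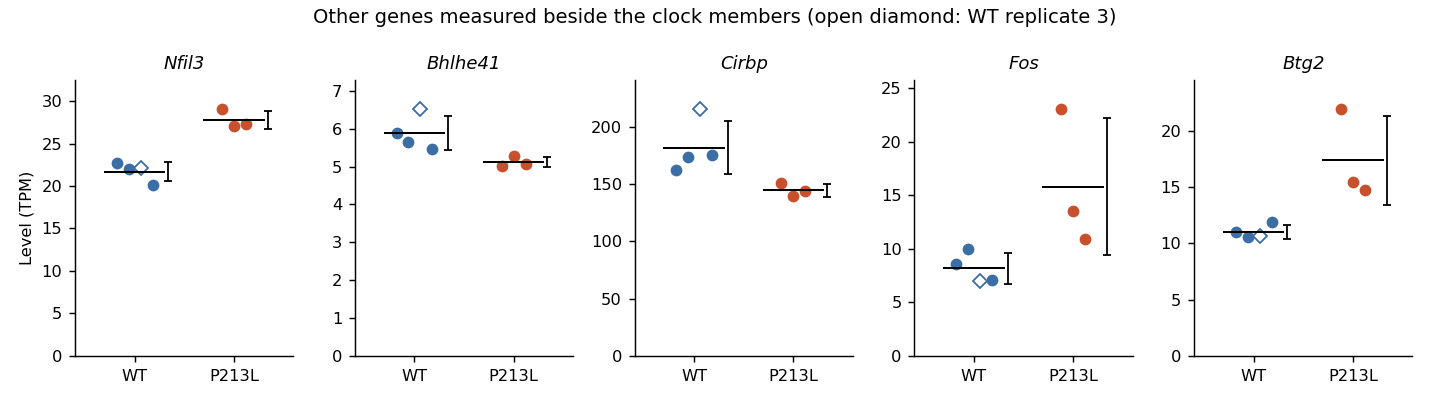
Levels in TPM of the clock repressors Nfil3 and Bhlhe41, the cold-induced Cirbp and the acute response genes Fos and Btg2, 1 point per library with group mean and SD (blue, WT; red, P213L; open diamond, WT replicate 3). The groups do not overlap in any of the 5 panels, as for 8.69% of all genes. The 5 genes were picked from those with the smallest p of their lists in these data, so that count shows no excess. None of them passed adjustment in the unweighted limma fit to all 7 libraries.

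Of 9 tested glucocorticoid targets 4 had a fold change above 0 and 5 below (6 below with median-of-ratios scaling), with a median of -0.02. Over all genes 36.6% were below 0, and 51.7% with that scaling. The metallothioneins Mt2 (log2 fold change -1.21 ± 0.34, SE) and Mt1 (-0.70 ± 0.28) were lower at an unadjusted p under 0.05, against 1.38% of all genes. They were the 2 of 9 that did not overlap, against 8.69% of all genes. Without WT replicate 3 they had -0.97 and -0.45. Tsc22d3, a direct target of the glucocorticoid receptor, had -0.18 ± 0.16 (-0.05 without WT replicate 3), and Ddit4 had 0.12 ± 0.11. Among 9 temperature-responsive genes, 6 were above 0 and 3 below (4 below with median-of-ratios scaling), with a median of 0.09, beside the same shares of all genes. The groups did not overlap for 3 of the 9, against 8.69% of all genes. Cirbp, an RNA-binding protein induced by mild cold, stood at 161.9, 173.8, 215.2 and 175.8 TPM in the WT libraries and at 150.5, 139.4 and 143.5 in those of P213L. Every P213L library was below every WT library (log2 fold change -0.32 ± 0.12, SE; limma adjusted p = 0.827), and it was -0.24 without WT replicate 3. Of the heat shock genes listed, Hspa1a, Hspa1b and Hspb1 had the smallest p. Their log2 fold changes were 0.48 ± 0.20, 0.30 ± 0.19 and 0.35 ± 0.23 (SE; limma adjusted p = 0.827 for each), and 0.41, 0.19 and 0.52 without WT replicate 3. Hspa1a and Hspa1b stood at no more than 3.89 TPM, and the groups of Hspa1a and Hspb1 overlapped. The other heat shock genes of the list had -0.05 to 0.12, and -0.14 to 0.04 with median-of-ratios scaling. The part of these signals in the clock values was not tested.

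Marker sums of some cell types moved with the groups and those of others overlapped. The 4 oligodendrocyte markers summed to 176.1 to 224.0 TPM in the WT libraries and 117.9 to 132.9 in those of P213L, with all 4 lower at an unadjusted p under 0.05, against 1.38% of all genes. The 4 microglial markers summed to 166.1 to 192.2 and 153.7 to 157.5 TPM. The 4 astrocyte markers summed to 507.6 to 681.2 and 575.7 to 595.6 TPM, and the 4 endothelial markers to 236.1 to 356.5 and 252.6 to 270.0 TPM, both with overlap. The 4 meningeal fibroblast markers were all higher in P213L and summed to 61.3 to 116.6 and 110.6 to 170.9 TPM. Their mean log2(TPM + 0.5) was 3.90 to 4.51 in WT and 4.54 to 4.98 in P213L, with no overlap. No list had a marker at 0 in every library. Fewer cells of a type and less RNA per cell cannot be told apart in bulk tissue, and the part of composition in the clock values was not tested.

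The genes whose profile over the 7 libraries was most like that of Dbp were not clock genes. The highest Pearson r of log2 level, gene models left out, belonged to Slc35e4 (0.992), Tcea2 (0.983), Gpr162 (0.981), Arhgef15 (0.980) and Engase (0.973), and they stayed at 0.967 to 0.995 without WT replicate 3. Of the other members, Ciart had an r of 0.74 with Dbp, Nr1d1 of 0.64 and Nr1d2 of -0.68. Arntl, which peaks opposite to Dbp in mature tissues, had an r of 0.75 with it, and 0.68 without WT replicate 3. For Npas2 these were 0.29 and -0.63. For Per1 the genes most alike included Synpo, Coro2b, Cspg4 and Tmem147os, at 0.994 to 0.996 with WT replicate 3 and 0.911 to 0.968 without it. Nr1d1 followed Per1 closely, with an r of 0.987, higher than 99.5% of the tested genes, and 0.927 without WT replicate 3. Per3 had 0.965, Cry2 0.958 and Per2 0.926, higher than 94.7%, 92.5% and 83.5% of the tested genes. Without WT replicate 3 these r were 0.56, 0.90 and 0.43. The remaining members were less like Per1, with Clock at 0.78, Cry1 at 0.77, Dbp at 0.58, Ciart at 0.31 and Nr1d2 at -0.28. Without that library these were -0.19, -0.34, 0.43, 0.87 and -0.09. These r describe 7 libraries, of which WT replicate 3 was low for most of the genes compared.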

How the data were processed

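TRIzol-extracted RNA was prepared with a stranded poly(A) kit, per the labels' protocols. The submitters' processing notes list HISAT2, HTSeq and mm10. For versions, annotation and the lengths behind TPM, nothing is given in the sources used here. The authors deposited 1 TPM value per gene and library, per the file header. In these values 147 symbols stand on more than 1 row, none of them a clock member. Since TPM fixes each library's sum, a large change in a few abundant transcripts moves every other value.

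Samples were grouped by title. Values were tested as log2(TPM + 0.5) for the 17582 genes that averaged 1 TPM or more, with limma 3.58.1 in R 4.3.3 (moderated two-sided test with a trend of variance on mean, p adjusted by Benjamini-Hochberg over these genes, threshold 0.05). The fit was tested on simulated data. Changes of low genes are understated on this scale. Single genes were also compared by exact permutation (35 splits, lowest possible p 0.0286). Scores over several genes have no p. Members, lists and alternatives were chosen with earlier results of these data known. Named were the members, Arntl, Npas2, up to 4 genes of each list by smallest p, genes with overlapping exons, and the 5 genes most like Dbp and Per1 by Pearson r, without gene models, clones and microRNAs. Some genes that this rule or the lists hold are not reported here. Alternatives were other pseudocounts, filters and scalings, removal of mitochondrial genes, no trend, sample weights, a replicate block and each sample left out. Leaving out WT replicates 2 and 3 together, median-of-ratios scaling without WT replicate 3, and r without WT replicate 3 were chosen after seeing the data. Promoters came from RefSeq (GRCm38.p6), gene models from GENCODE vM21, and figures from matplotlib 3.10.9.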

Additional observations from a re-analysis of the deposited data

Results flagged for a closer look

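In 35 measures (31 clock genes and 4 scores), samples far from the rest of the 4 WT libraries were looked for with Dixon's ratio, which chance exceeds in about 1 of 20 groups. There were 4 such values, all of them low values in WT replicate 3. Per1 stood at 25.5 TPM there, against 43.3 to 46.9 TPM in the other WT libraries. Per2 stood at 5.45 TPM, against 11.8 to 13.0 TPM, and Btrc, a ubiquitin ligase subunit for PER proteins, at 11.2 TPM, against 20.4 to 21.4 TPM. The mean log2(TPM + 0.5) of the 10 members was 4.12, against 4.68 to 4.73. The same library was also the lowest of the 7 in 17 of the 21 other clock genes, and its typical gene was low as well.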

How the results depend on the processing

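No clock member passed an adjusted p of 0.05 in limma under any of the 19 alternatives, but signs near 0 moved. Values are log2 fold changes. Median-of-ratios scaling reversed Dbp (-0.0052), Per3 (-0.0052), Npas2 (-0.031), Nr1d1 (-0.044), Clock (-0.047) and Cry1 (-0.048). Quantile normalization reversed Dbp (-0.0074), Per3 (-0.028), Nr1d1 (-0.039), Npas2 (-0.041), Cry1 (-0.059) and Clock (-0.062). Sample weights, which gave WT replicate 3 a weight of 0.0432, reversed Per1 (-0.10), Per3 (-0.13), Nr1d1 (-0.15), Npas2 (-0.16) and Clock (-0.20), and left a phase contrast of -0.055. They called 3981 of 17582 genes past an adjusted p of 0.05 in limma, none of them a member. The smallest limma adjusted p of a member there was 0.0506, just above the threshold. Among the calls were Nfil3, Csnk1d, Fos, Btg2, Junb, Cirbp, Mt1, Mt2 and Sphk2, none of which passed in the unweighted fit. At an unadjusted p under 0.05 there were 2 members, a threshold that all 3981 genes pass as well. The counts of members at that p in this section have no share of all genes beside them and are not read as a result about the members. With single samples left out, the ranges were -0.21 to 0.18 for Clock, -0.027 to 0.098 for Cry1, -0.15 to 0.061 for Cry2, -0.10 to 0.13 for Npas2, -0.18 to 0.16 for Nr1d1, -0.11 to 0.18 for Per1, -0.28 to 0.11 for Per2 and -0.13 to 0.17 for Per3, and 0 to 2 members were at an unadjusted p under 0.05. Without WT replicates 2 and 3 together there was 1 such member, and reversed values were Clock -0.11, Dbp -0.096, Npas2 -0.086, Nr1d1 -0.24, Per1 -0.14, Per3 -0.10 and Tsc22d3 0.0036. Median-of-ratios scaling without WT replicate 3 gave 2 such members, with Clock at -0.21, Cry1 -0.028, Npas2 -0.105, Nr1d1 -0.18, Per1 -0.11 and Per3 -0.13. The labels do not say whether the replicate numbers pair the samples. Deviations of same-numbered samples correlated at 0.128, 0.17 and -0.101, and those of differently numbered samples at -0.244 to 0.121. Such weak correlations do not settle whether there is a pairing. A replicate block, to which WT replicate 4 contributes nothing, reversed Cry2 (0.018) and Per2 (0.066) and changed no call. Without WT replicate 3 the sign turned for 5 of 10 members and 7 of 21 other clock genes. The share of all genes is not given here, and the cause was not tested.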
